A study of Mus musculus with 6 samples.

Results

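Dual-specificity phosphatases that act on MAP kinases, a family of enzymes that remove phosphate from both the threonine and the tyrosine of an activated MAP kinase, were followed in differentiated MC3T3-E1 osteoblasts treated with corticosterone. The 10 genes (*Dusp1*, *Dusp3*, *Dusp4*, *Dusp5*, *Dusp6*, *Dusp7*, *Dusp8*, *Dusp10*, *Dusp14* and *Dusp16*) were chosen by gene symbol, and all 10 were found among the 24016 genes of the table. MC3T3-E1 is a mouse calvarial preosteoblast line, used here as a single wild-type subclone, so the libraries describe 1 clone in culture and not bone. Over 6 days the cells were differentiated in 10 mM β-glycerophosphate and 50 μg/ml ascorbic acid, and then received either vehicle (3 libraries) or 100 nM corticosterone (3 libraries) for 24 h. The labels list calcitriol at 10 nM in the treatment protocol of all 6 samples, vehicle included. The methods call the replicates biological and independent, while the labels do not say how the cultures were separated, and p-values measure the spread between these samples.

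MAP kinases (ERK, JNK and p38) relay signals from growth factors, cytokines and stress to the nucleus, and they are switched off when dual-specificity phosphatases dephosphorylate their activation loop. The family differs in location and in preferred kinase: *Dusp1*, *Dusp4* and *Dusp5* encode nuclear enzymes whose genes are induced by stimuli, *Dusp6* and *Dusp7* encode cytoplasmic enzymes selective for ERK, *Dusp8*, *Dusp10* and *Dusp16* encode enzymes that prefer JNK and p38, and *Dusp3* and *Dusp14* encode small atypical members without the kinase-binding domain of the others. Corticosterone is the main glucocorticoid of rodents and acts through the glucocorticoid receptor, and *Dusp1* is a well-known glucocorticoid-responsive gene. Gene coordinates below are those of mm10 (GENCODE vM21), and product lengths are those of the longest coding sequence annotated there.

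The libraries held 16020401 to 25638645 reads on genes, and all 3 corticosterone libraries held fewer than any vehicle library. Values are normalized counts, that is, reads divided by 1 size factor per library, and 3 reads correspond to a normalized count of 2.32 to 3.84. The glucocorticoid-responsive genes *Tsc22d3*, *Fkbp5*, *Per1* and *Sgk1* had log2 fold changes of 1.49, 2.46, 2.02 and 2.75 (corticosterone against vehicle). The 10 osteoblast markers examined were all present, and their summed length-scaled level was 247396 to 255527 with vehicle and 231062 to 240186 with corticosterone. Single markers differed more than this sum. The log2 fold changes were -1.16 (*Runx2*), -1.34 (*Sp7*), -1.87 (*Bglap*), -1.20 (*Ibsp*) and -1.30 (*Pth1r*). They were smaller for *Alpl* (-0.41), *Col1a2* (-0.35), *Sparc* (-0.33) and *Col1a1* (-0.15), and *Spp1* rose (0.23). In these bulk samples fewer cells of a type and less RNA per cell cannot be told apart.

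Promoter sequence is shown for 4 members: *Dusp1* and *Dusp5*, which rose, *Dusp6*, the most abundant member with vehicle, which fell, and *Dusp8*, which did not pass the test and holds the same motif as *Dusp1*. Each line gives the 200 bases from 250 to 51 bases before the RefSeq start (GRCm38.p6), 5′ to 3′ on the strand of the gene, with motif matches in capitals. The windows lie at chr17:26508523-26508722 (minus strand, *Dusp1*), chr19:53528895-53529094 (plus strand, *Dusp5*), chr10:99262981-99263180 (plus strand, *Dusp6*) and chr7:142095335-142095534 (minus strand, *Dusp8*). Those of *Dusp1* and *Dusp8* lie inside the GENCODE spans given below, which reach further upstream. Only the RefSeq start was searched.
Dusp1: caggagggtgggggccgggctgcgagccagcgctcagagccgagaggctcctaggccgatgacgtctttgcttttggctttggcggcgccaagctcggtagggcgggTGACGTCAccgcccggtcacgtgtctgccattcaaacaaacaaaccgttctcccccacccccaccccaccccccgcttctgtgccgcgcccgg
Dusp5: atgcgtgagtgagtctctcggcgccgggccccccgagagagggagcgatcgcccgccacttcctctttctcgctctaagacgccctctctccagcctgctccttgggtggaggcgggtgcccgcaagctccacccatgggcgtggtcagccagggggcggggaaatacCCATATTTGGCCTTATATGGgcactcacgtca
Dusp6: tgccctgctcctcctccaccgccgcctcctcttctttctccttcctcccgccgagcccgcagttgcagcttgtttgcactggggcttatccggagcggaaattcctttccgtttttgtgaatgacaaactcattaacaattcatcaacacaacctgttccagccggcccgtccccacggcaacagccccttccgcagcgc
Dusp8: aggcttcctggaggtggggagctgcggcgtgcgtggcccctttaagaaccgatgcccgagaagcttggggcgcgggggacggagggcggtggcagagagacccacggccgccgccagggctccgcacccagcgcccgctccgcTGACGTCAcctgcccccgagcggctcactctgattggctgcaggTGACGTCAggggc
Of the 10 members, 9 matched a RefSeq promoter window (250 bases before to 50 after the start), and *Dusp4* did not. Both strands were searched. The cyclic AMP response element TGACGTCA was found once in *Dusp1*, 143 to 136 bases before the start, and 2 times in *Dusp8*, at 107 to 100 and at 63 to 56 bases, against 1.79% of all 32851 windows. *Dusp5* held 2 adjacent CArG boxes, the motif bound by serum response factor, at 82 to 73 and 72 to 63 bases before the start, and 1.63% of all windows held one. None of the 9 windows held the glucocorticoid receptor half-site TGTTCT (19.0% of all windows), its palindrome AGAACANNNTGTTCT (0.00913%), which contains the half-site on each strand, or the AP-1 motif TGANTCA (7.81%). A match describes letters in the window and not a bound site, and a window without a match says nothing of the factor elsewhere.

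With corticosterone, 3 of the 10 members rose (*Dusp1*, *Dusp5* and *Dusp7*), 2 fell (*Dusp4* and *Dusp6*) and 5 did not pass the test (limma across all genes, adjusted p under 0.05). Across all 24016 genes 8.49% were higher and 8.2% were lower by this rule, and among the 13880 genes whose mean was 10 or more, a level that all 10 members had, the shares were 14.2% and 13.5%. With an absolute log2 fold change over 1 as a further condition, *Dusp1* was higher and *Dusp4* was lower, against 1.38% and 1.4% of all genes. Among the 13880 genes with a mean of 10 or more, 261 were higher and 236 were lower by this rule. The vehicle and corticosterone values did not overlap in 5 of the 10 members, close to the 43.8% of those 13880 genes for which this held. The median log2 fold change of the members was 0.07, against -0.01 for all genes, and their median absolute log2 fold change was 0.22, against 0.16 for those 13880 genes. The members moved in both directions. The 5 that passed are listed here as nuclear or cytoplasmic ERK-selective, but these groups do not separate the members by kinase, since *Dusp1* also acts on p38 and JNK. The call of *Dusp7* held in only 1 of 6 fits that left out a library. *Dusp8*, which did not pass, rests on 34 to 64 reads per library.

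**Figure D1:**
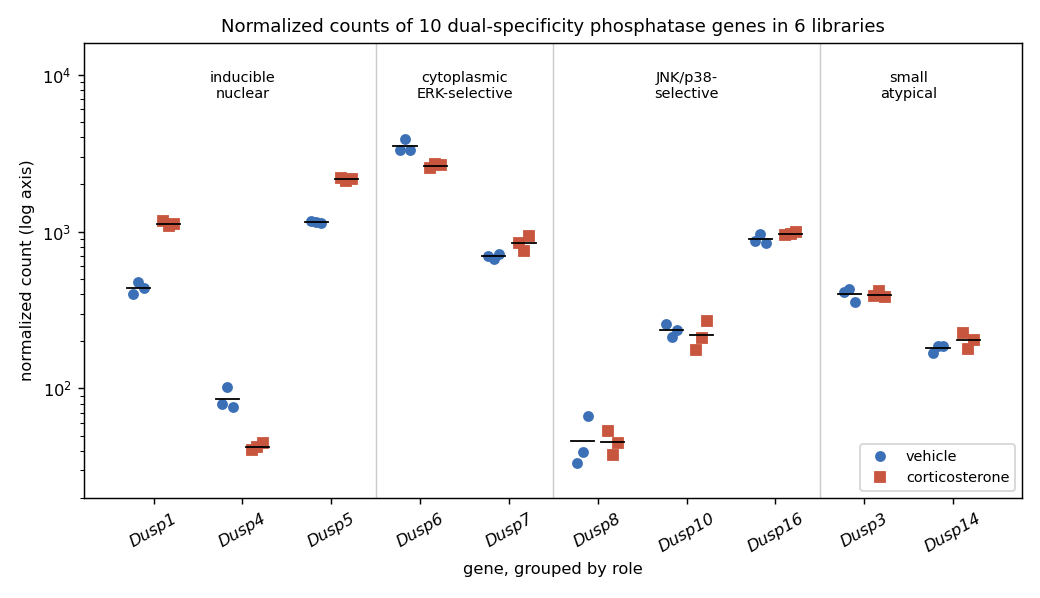
Normalized count (log axis) of each of the 10 genes in each of the 6 libraries, 1 point per library, with the genes grouped by the kinase preference and location of their products and a short line at each group mean. The 3 corticosterone values of *Dusp1* (1089 to 1172) and *Dusp5* (2091 to 2204) lie above all vehicle values, and those of *Dusp4* (40.7 to 44.8) and *Dusp6* (2547 to 2695) lie below them.

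Among the inducible nuclear phosphatases, *Dusp1* and *Dusp5* rose while *Dusp4* fell. *Dusp1* (ENSMUSG00000024190, chr17:26505590-26562128, minus strand) encodes a phosphatase of 367 residues that acts on p38, JNK and ERK. Its normalized count was 401, 479 and 434 with vehicle and 1172, 1089 and 1112 with corticosterone, resting on 420 to 1095 reads. Every corticosterone library stood far above every vehicle library, and within each group the values lay close together. The mean rose 2.57-fold, from 438 ± 39.1 to 1124 ± 43.1 (SD, n = 3 each), with a log2 fold change of 1.36 (SE 0.07, 95% interval 1.22 to 1.51) and an adjusted p of 6.2e-10 by limma. *Dusp5* (ENSMUSG00000034765, chr19:53529109-53542431, plus strand) encodes an ERK-selective nuclear phosphatase of 384 residues. Its normalized count was 1164, 1150.0 and 1138 with vehicle and 2204, 2091 and 2162 with corticosterone (1100 to 2059 reads). The vehicle libraries differed little from one another, and all corticosterone libraries were well above them. The mean rose 1.87-fold, from 1151 ± 13.3 to 2152 ± 57.5 (SD, n = 3 each), with a log2 fold change of 0.90 (SE 0.05, 95% interval 0.80 to 1.00) and an adjusted p of 7.7e-10 by limma. An antisense gene, AC137853.2, covers 547 bases (22.1%) of the exons of *Dusp5*. Because the library kit does not mark strand, reads of the pair cannot be told apart there. How such reads were counted is not given, and this limit also bears on the level of *Dusp5* against other members below.

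*Dusp4* (ENSMUSG00000031530, chr8:34807297-34819894, plus strand), whose nuclear product of 398 residues acts on ERK and JNK, moved the other way. Its normalized count was 79.5, 102 and 76.5 with vehicle and 40.7, 42.0 and 44.8 with corticosterone. These values rest on 35 to 132 reads, the corticosterone values lie within a narrow band, and vehicle replicate 2 stands highest. The mean fell to 0.494 times the vehicle level, from 86.0 ± 13.9 to 42.5 ± 2.09 (SD, n = 3 each), with a log2 fold change of -1.005 (SE 0.19, 95% interval -1.40 to -0.61) and an adjusted p of 0.0010 by limma. The fall passed the adjusted p threshold under all 21 alternatives tried, but it sat at the fold threshold: the log2 fold change was -0.88 without vehicle replicate 2, -0.974 without corticosterone replicate 1 and -0.997 without corticosterone replicate 2.

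The cytoplasmic ERK-selective pair split in the same way, with a lower *Dusp6* and a slightly higher *Dusp7*. *Dusp6* (ENSMUSG00000019960, chr10:99263231-99267489, plus strand) encodes a phosphatase of 381 residues whose own transcription is driven by ERK signaling. Its normalized count was 3330.3, 3915 and 3299.6 with vehicle and 2547, 2695 and 2653 with corticosterone (2074 to 5072 reads). The groups did not overlap, and the spread of the vehicle libraries came mostly from replicate 2. The mean fell by 25.1%, from 3515 ± 347 to 2632 ± 76.2 (SD, n = 3 each), with a log2 fold change of -0.41 (SE 0.06, 95% interval -0.54 to -0.29) and an adjusted p of 6.8e-05 by limma, which became 0.079 when limma's variance trend was left out. *Dusp7* (ENSMUSG00000053716, chr9:106368632-106375724, plus strand), a close relative of *Dusp6* with a product of 422 residues, had normalized counts of 699.8, 669.9 and 722 with vehicle and 847, 747 and 943 with corticosterone. The corticosterone libraries were all higher but scattered, and the lowest of them was only slightly above vehicle replicate 3. The log2 fold change was 0.27 (SE 0.08, 95% interval 0.11 to 0.43) with an adjusted p of 0.019 by limma, and this call is fragile, since leaving out any 1 library other than corticosterone replicate 2 gave an adjusted p of 0.084 to 0.15.

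**Figure D2:**
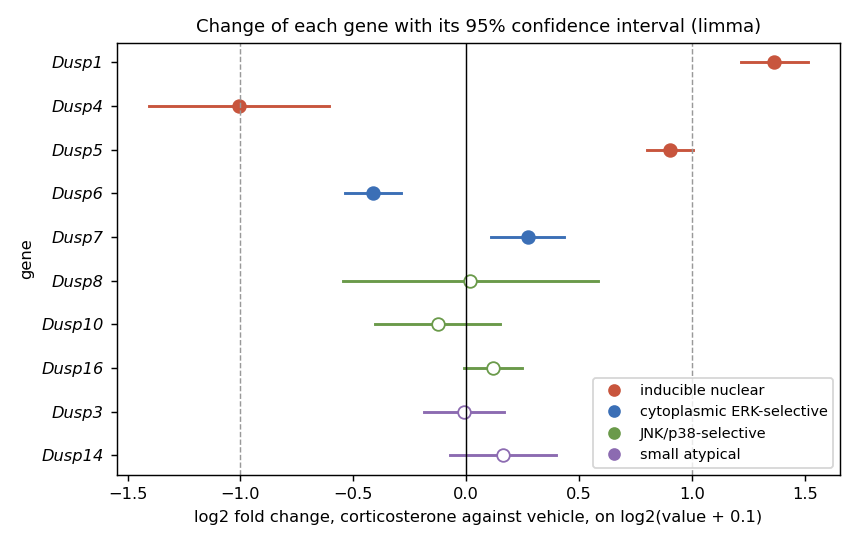
Log2 fold change (corticosterone against vehicle) of each of the 10 genes from limma, with bars for the 95% confidence interval colour for the group of the gene, filled points for genes past the adjusted p threshold and dashed lines at the fold threshold. *Dusp1* (1.36) and *Dusp5* (0.90) lie to the right of 0, *Dusp4* (-1.005) and *Dusp6* (-0.41) to the left, and the intervals of 5 genes include 0.

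None of the JNK- and p38-selective phosphatases passed the test. *Dusp16* (ENSMUSG00000030203, chr6:134715468-134792625, minus strand), which has the highest length-scaled level of these 3, had normalized counts of 870.1, 963 and 844 with vehicle and 952, 962 and 993 with corticosterone. The highest vehicle library lay between the corticosterone libraries, and the log2 fold change was 0.12 (95% interval -0.01 to 0.25, limma adjusted p 0.23). *Dusp10* (ENSMUSG00000039384, chr1:184013302-184075636, plus strand) had 255, 214 and 235 with vehicle and 176, 209.9 and 267 with corticosterone, so that the corticosterone libraries held both the lowest and the highest value. Its log2 fold change was -0.13 (95% interval -0.41 to 0.15, limma adjusted p 0.63). *Dusp8* (ENSMUSG00000037887, chr7:142079490-142095843, minus strand), a low gene with 34 to 64 reads per library, had 33.2, 39.4 and 66.2 with vehicle and 53.5, 37.6 and 44.8 with corticosterone. Vehicle alone spanned the whole range of *Dusp8*, and its interval, -0.55 to 0.58 on the log2 scale, includes changes of either sign.

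The small atypical phosphatases also gave overlapping groups. *Dusp3* (ENSMUSG00000003518, chr11:101971143-101987013, minus strand), which encodes a phosphatase of 210 residues that acts on ERK and JNK, had normalized counts of 409, 429 and 357 with vehicle and 385, 416 and 383 with corticosterone. All corticosterone libraries of *Dusp3* lay within the vehicle range, and the log2 fold change was -0.01 (95% interval -0.19 to 0.17, limma adjusted p 0.97). An antisense gene, Gm20659, covers 12.9% of its exon bases. *Dusp14* (ENSMUSG00000018648, chr11:84048041-84069261, minus strand), with a product of 198 residues, had 168, 186 and 186 with vehicle and 225, 178 and 205 with corticosterone. Of the corticosterone libraries of *Dusp14*, 1 lay inside the vehicle range, and the log2 fold change was 0.16 (95% interval -0.07 to 0.40, limma adjusted p 0.40). An exact permutation test for 3 against 3 cannot go below a two-sided p of 0.1, and it gave 0.1 for *Dusp1*, *Dusp4*, *Dusp5*, *Dusp6* and *Dusp7*.

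Levels were compared between members per kilobase of exons, as normalized count per kilobase. With vehicle, *Dusp6* stood highest at 1122 ± 111 (SD, n = 3), followed by *Dusp5* at 465 ± 5.39, *Dusp7* at 208 ± 7.78 and *Dusp1* at 132 ± 11.8. *Dusp16*, *Dusp14*, *Dusp3* and *Dusp10* followed at means of 114, 92.6, 85.1 and 77.1, and *Dusp4* at 31.4 and *Dusp8* at 9.50 were lowest. The vehicle libraries of *Dusp1* and *Dusp16*, of *Dusp14* and *Dusp3*, and of *Dusp3* and *Dusp10* overlapped, so these neighbours do not differ beyond their spread. With corticosterone, *Dusp5* at 870.4 ± 23.2 and *Dusp6* at 840.3 ± 24.3 overlapped at the top, and *Dusp1* at 339.6 ± 13.0 moved above *Dusp7* at 252 ± 29.2. *Dusp4* (15.5) and *Dusp8* (9.30) remained the lowest.

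The nuclear group took a larger share of the family sum with corticosterone, and each of the other groups a smaller one. In length-scaled units the 3 nuclear genes summed to 620.8, 646.7 and 619.2 with vehicle and 1260.3, 1189.7 and 1226.4 with corticosterone, that is, from 26.0% to 27.4% of the family sum with vehicle and from 44.3% to 46.4% with corticosterone. The cytoplasmic pair went from 56.1% to 58.3% of the family sum with vehicle to between 39.3% and 40.8% with corticosterone. The share of the 3 JNK- and p38-selective genes was 8.12% to 8.92% with vehicle and 7.03% to 8.11% with corticosterone, and that of the small atypical pair 7.54% to 7.66% and 6.76% to 7.29%. The summed levels of these groups overlapped between treatments, at 199 to 202 and 191 to 224 for the former and 172 to 187 and 180 to 198 for the latter. The family sum itself was 2259 to 2485 with vehicle and 2653 to 2766 with corticosterone. Within a library, where the size factor cancels, the ratio of *Dusp1* to *Dusp6* was 0.114, 0.116 and 0.125 with vehicle and 0.435, 0.382 and 0.396 with corticosterone. The ratio of *Dusp5* to *Dusp6* was 0.443, 0.372 and 0.437 with vehicle and 1.10, 0.983 and 1.03 with corticosterone. In every vehicle library *Dusp6* stood above *Dusp5*, and in the corticosterone libraries the pair stood at about the same level.

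**Figure D3:**
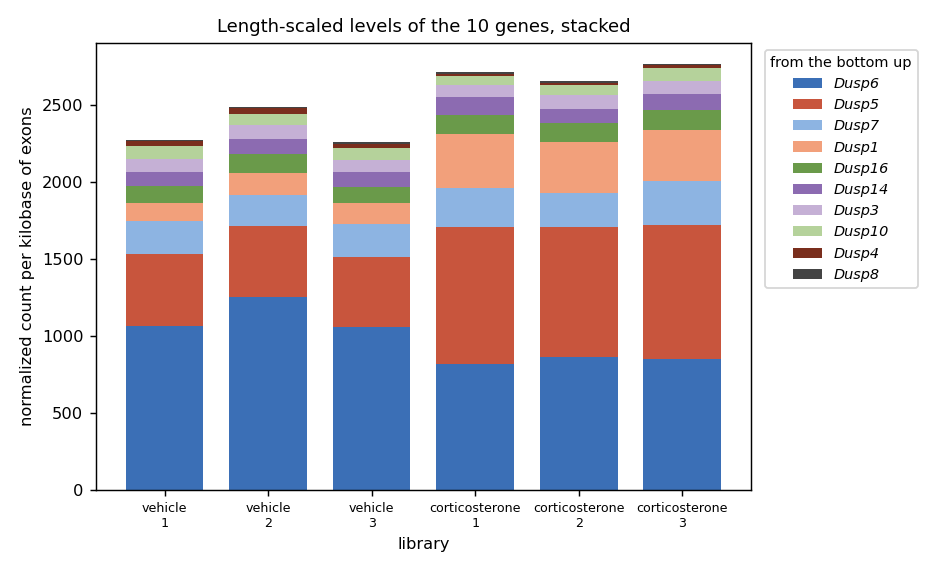
Stacked bars of the normalized count per kilobase of exons of the 10 genes in each library, starting at 0. The segment of *Dusp6* takes 46.6% to 50.3% of each vehicle bar and 29.96% to 32.4% of each corticosterone bar, while that of *Dusp5* goes from 18.7% to 20.8% to between 31.6% and 32.8% and that of *Dusp1* from 5.33% to 5.81% to between 12.1% and 13.0%.

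Other genes of the pathway were taken as 6 lists, of which 64 of 67 genes were in the table, and *Dusp13*, *Dusp21* and *Dusp26* were not analysed here. In all, 9 were higher, 9 were lower and 46 did not pass the test, with a median log2 fold change of -0.05. Of the 64, 59 had a mean of 10 or more. These counts, and those of each list below, are to be read against the 14.2% higher and 13.5% lower of genes at that level. Among the 8 other MAP kinase phosphatases only *Dusp2* passed. This nuclear relative of *Dusp1* had normalized counts of 57.6, 81.0 and 77.6 with vehicle and 153, 147 and 109 with corticosterone, and its log2 fold change was 0.92 (SE 0.17, limma adjusted p 0.0011). *Dusp9*, a relative of *Dusp6*, had at most 2 reads in a library. Among the 9 other atypical members tested, *Dusp18* fell (log2 fold change -0.40, limma adjusted p 0.014) and 8 did not pass. That call ended without vehicle replicate 1 (adjusted p 0.063), corticosterone replicate 1 (0.061) or corticosterone replicate 3 (0.062), without limma's variance trend (0.065), and in DESeq2 with the replicate number as a block (0.16).

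Of the 14 genes of the ERK cascade, 2 were higher, 1 was lower and the median log2 fold change was 0.01. *Ksr1*, a scaffold that holds RAF, MEK and ERK together, had normalized counts of 852, 807 and 902 with vehicle and 1956, 2018 and 1998 with corticosterone, a log2 fold change of 1.22 (SE 0.05, limma adjusted p 9.5e-11). *Mapk3* (ERK1) fell by 0.15 on the log2 scale (limma adjusted p 0.022) and *Rps6ka3*, a kinase downstream of ERK, rose by 0.25 (0.00995). Both calls ended without vehicle replicate 3 (0.067 and 0.078) or corticosterone replicates 1 (0.13 and 0.083) or 2 (0.064 and 0.072), and that of *Mapk3* also without vehicle replicate 1 (0.077) and in DESeq2 with the replicate block (0.066). Without limma's variance trend the adjusted p was 0.23 for *Mapk3* and 0.18 for *Rps6ka3*, and with upper-quartile scaling that of *Rps6ka3* was 0.11. The list of ERK transcriptional output holds genes known, like *Dusp6*, to respond to ERK signaling. Of its 8 genes 3 fell, 1 rose and 4 did not pass. ERK activity was not measured in these libraries, and its part in these changes was not tested. *Etv5*, an ETS transcription factor, had 1446, 1748 and 1379.8 with vehicle and 877, 902 and 915 with corticosterone (log2 fold change -0.76, limma adjusted p 1.0e-06). *Spry4*, an inhibitor of receptor tyrosine kinase signaling, had 55.1, 102 and 65.2 with vehicle and 24.6, 34.2 and 37.1 with corticosterone (log2 fold change -1.18, SE 0.26, limma adjusted p 0.0035, and 0.052 without vehicle replicate 3). *Etv4* fell by 0.36 on the log2 scale (limma adjusted p 0.0079, but 0.064, 0.080 and 0.12 without vehicle replicate 2, vehicle replicate 3 and corticosterone replicate 3), whereas *Epha4*, a receptor for ephrins, rose by 0.44. The limma adjusted p of *Etv4* was 0.22 when the variance trend was left out. Vehicle replicate 2 was the highest of the 6 libraries in *Dusp6*, *Dusp4*, *Spry4*, *Etv4* and *Etv5*, and leaving it out ended the call of *Etv4* and of none of the other 4.

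Of the 14 genes of the p38 cascade, 4 were higher and 2 were lower, against 14.2% and 13.5% of genes with a mean of 10 or more. The median log2 fold change of this list was 0.02. *Map2k6*, a kinase that activates p38, had normalized counts of 135, 106 and 118 with vehicle and 63.2, 71.8 and 70.4 with corticosterone (log2 fold change -0.80, limma adjusted p 0.0012). The upstream kinases *Map3k5*, *Map3k6* and *Map3k7* rose, by 0.73, 0.66 and 0.25 on the log2 scale (limma adjusted p 0.0019, 2.0e-05 and 0.00045). Each was counted in this list only, so the counts do not show whether it also serves the JNK cascade. Without limma's variance trend the adjusted p was 0.058 for *Map3k5* and 0.098 for *Map3k7*. Of the 11 genes of the JNK cascade, the scaffold *Mapk8ip3* rose by 0.19, the scaffold *Mapk8ip1* and the kinase *Map3k10* fell by 0.26 and 0.24 on the log2 scale, and 8 did not pass. Each of these 3 calls ended without 1 or another library. That of *Mapk8ip3* ended without vehicle replicate 1 (limma adjusted p 0.066) or corticosterone replicates 1 (0.066) or 2 (0.072). That of *Mapk8ip1* ended without vehicle replicate 3 (0.076) or corticosterone replicate 2 (0.052). That of *Map3k10* ended without vehicle replicate 3 (0.091) or corticosterone replicates 1 (0.060) or 3 (0.054). All 3 also ended without limma's variance trend (0.22, 0.15 and 0.20), and that of *Mapk8ip3* with upper-quartile scaling (0.17).

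**Figure D4:**
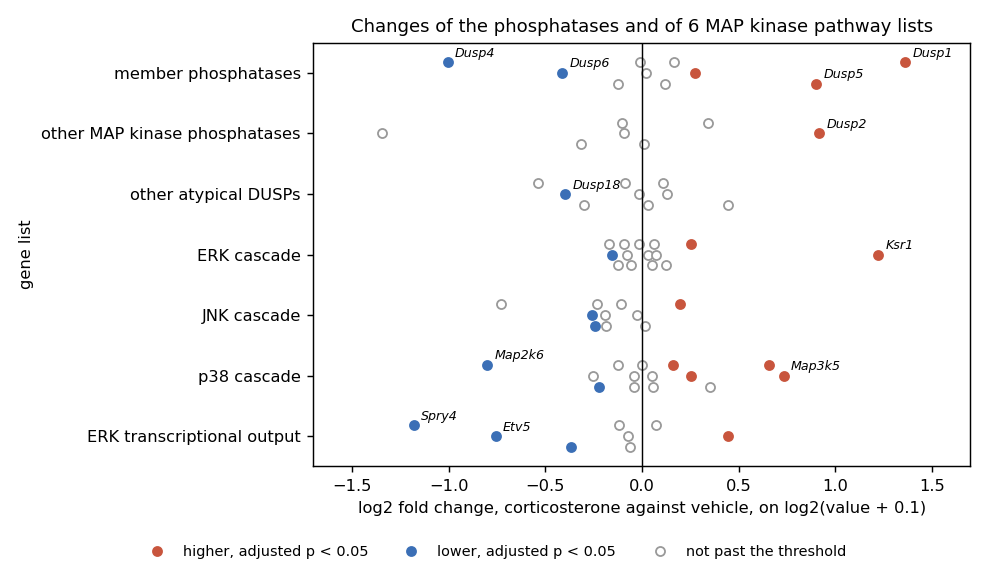
Log2 fold change (corticosterone against vehicle) of each gene of the phosphatase family and of 6 MAP kinase pathway lists, 1 row per list, with genes past the adjusted p threshold coloured. The row medians lie between -0.18 and 0.07, and 2 genes beyond the axis are left out.

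The genes whose pattern was most like that of *Dusp1* over the 6 libraries, among 10557 genes with a mean of at least 100, were *Adarb1*, *Neat1* and *Mt1*, with a root mean square difference in log2 values of 0.0299, 0.0507 and 0.0685. For *Dusp4*, among 10558 genes, they were *Per3*, *Slc1a3* and *Plat*, at 0.0548, 0.0724 and 0.0798. With 2 groups this measure mainly picks genes of like fold change. The log2 fold changes were 1.38, 1.31 and 1.39 for the former 3 and -0.97, -1.03 and -1.05 for the latter. Shared regulation was not tested.

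Markers of other cell types were examined beside these results. The summed length-scaled level of the adipocyte markers in the table, 2 of 5, was 1.72 to 4.70 with vehicle and 24.1 to 29.6 with corticosterone, and it came from *Fabp4*, while *Plin1* had at most 2 reads in a library. Chondrocyte markers (3 of 5 in the table) summed to 711 to 768 with vehicle and 619 to 643 with corticosterone. They did not move together, since *Col10a1* rose (log2 fold change 0.73) while *Sox9* (-0.16) and *Col2a1* (-0.80) fell. Macrophage markers (3 of 5) summed to 72.1 to 86.3 and 74.3 to 83.6, and the only myoblast marker in the table, *Des*, to 4.10 to 6.34 and 4.77 to 5.70. Of the 10 osteoblast markers 1 was higher and 9 were lower, against 14.2% and 13.5% of genes with a mean of 10 or more. The part of these markers in the changes of the phosphatase genes was not tested. All 5 calls among the members also held with edgeR and with DESeq2 on the recovered reads. The corticosterone libraries all held fewer reads than any vehicle library, and the part of depth in these calls was not tested.

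**Figure D5:**
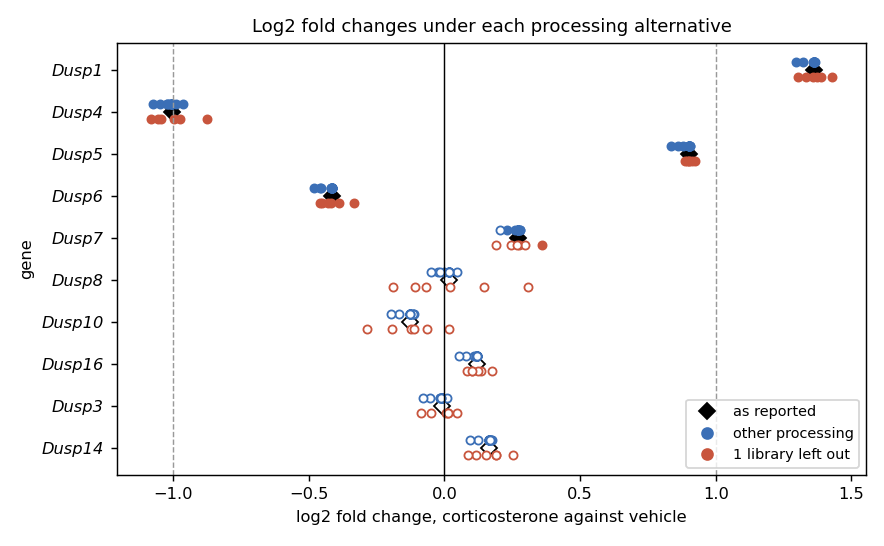
Log2 fold change (corticosterone against vehicle) of each of the 10 genes under the main setting and under the 21 alternatives, 1 point per setting, filled where the adjusted p passed the threshold. *Dusp1* ranges from 1.30 to 1.43, *Dusp5* from 0.83 to 0.92, *Dusp4* from -1.08 to -0.88, *Dusp6* from -0.48 to -0.33 and *Dusp7* from 0.19 to 0.36, and none of these 5 crosses 0.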

How the data were processed

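RNA-seq libraries of 3 vehicle and 3 corticosterone cultures were analysed, grouped by their labels. The members and gene lists were chosen with earlier results of these data known. The table the authors deposited calls its values FPKM. Within a library, however, all values are multiples of the same step whatever the length of the gene, so the authors made this normalized signal by dividing read counts by a library-wide size factor. Whole reads were recovered for all values (tolerance 0.01 reads). The submitters' processing notes name the build mm10. The aligner, counting program, annotation and strand setting are not given in the sources used here.

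The test was limma 3.58.1 (lmFit, eBayes with its variance trend), run under R 4.3.3 on log2(value + 0.1). A minimum mean of 0.1 removed none of the 24016 genes, and p-values were adjusted over all of them by Benjamini-Hochberg. Fold changes are on the log2(value + 0.1) scale. A gene was called at an adjusted p under 0.05, and separately with an absolute log2 fold change over 1 as well. Levels per kilobase used the union of GENCODE vM21 exons. Named beyond the members are the 4 largest changes past the adjusted p threshold in each pathway list and all past the fold threshold, 4 glucocorticoid-responsive check genes, and the 3 genes most like each member past both thresholds (least root mean square difference of log2 values less the vehicle mean).

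Alternatives were pseudocounts of 1 and 0.01, no filter, means of at least 1 and 10, the replicate number as a block, a robust prior variance, leaving out the variance trend, quantile, equal-total and upper-quartile scaling, edgeR 4.0.16 and DESeq2 1.42.0 on recovered reads with and without the block, and leaving out each library. The fits were tested on simulated data. Libraries of 1 treatment differed by more than sampling noise, so none was counted as a duplicate. Their chi-square per degree of freedom was 3.38 to 12.2, highest between vehicle replicates 1 and 2. Precision rests on 16020401 to 25638645 reads per library, and the 3-read floor covers counting error only.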

Additional observations from a re-analysis of the deposited data

How the results depend on the processing

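*Dusp1*, *Dusp4* and *Dusp5* kept their calls under all 21 alternatives, *Dusp6* under 20 and *Dusp7* under 14. Without the variance trend *Dusp6* had an adjusted p of 0.079 and *Dusp7* of 0.25, which left 1 lower member, 873 higher and 760 lower genes in all, and 3 higher and 2 lower pathway genes. *Dusp7* also lost its call with upper-quartile scaling (0.069), which gave 1349 higher and 2595 lower genes in all and 15 lower pathway genes, against 2040, 1970 and 9. Scaling to the same total gave 1703 higher and 2521 lower genes. No member was lower past the fold threshold with a pseudocount of 1 or with quantile normalization, where *Dusp4* had log2 fold changes of -0.99 and -0.96. Leaving out 1 library at a time gave 0 to 1 members lower past the fold threshold, 1148 to 1611 lower genes in all, 204 to 321 lower past the fold threshold (337 with all libraries) and 3 to 8 lower pathway genes. The counts of 1148, 204 and 3 were those without vehicle replicate 3, and there were 220 lower genes past the fold threshold without vehicle replicate 2 and 5 lower pathway genes without corticosterone replicate 3. The member lower past the fold threshold was lost without vehicle replicate 2, corticosterone replicate 1 or corticosterone replicate 2. *Spry4* lost its call without vehicle replicate 3 (adjusted p 0.052) and without the trend (0.11), and *Dusp2* without the trend (0.083).

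Of members not called, *Dusp3* turned to 0.00962 with quantile normalization and lay between -0.0876 and 0.0454 on leaving out libraries. *Dusp8* turned to -0.0234 with equal totals, -0.0501 with upper-quartile scaling, -0.000139 with edgeR and -0.0164 with DESeq2, and lay between -0.19 and 0.31 on leaving out libraries. *Dusp10* lay between -0.286 and 0.0172. The causes of these changes were not tested.

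Same-numbered libraries did not deviate together (correlations of -0.0438, 0.00136 and 0.0234 over 13880 genes). Whether the numbers mark paired cultures is not stated, and these correlations cannot settle it. With the replicate number as a block, limma called 2012 genes higher and 1893 lower, and 3 members higher and 2 lower. DESeq2 with the block gave 1254 lower genes and 198 lower past the fold threshold, and ended the calls of *Dusp18* (adjusted p 0.16) and *Mapk3* (0.066). No other call on a named gene changed under a block. *Dusp4* and *Dusp8* rest on the fewest reads, at 35 to 132 and 34 to 64 per library.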
